A study of Mus musculus with 8 samples.

Results

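The genes described here mark gamma delta T cells in blood: the constant gene of the T cell receptor delta chain (Trdc), 3 constant genes of the gamma chain (Tcrg-C1, Tcrg-C2 and Tcrg-C4), and the transcription factors Sox13 and Zbtb16. They were chosen by name, and all 6 were found among the 56748 genes of the count table. Trdc, Sox13 and Zbtb16 carry those names there, and the 3 gamma constant genes, which the table calls Trgc1, Trgc2 and Trgc4, were matched by Ensembl identifier. Poly(A) RNA was sequenced from peripheral blood mononuclear cells of wild-type male C57BL/6J mice aged 8 weeks. There were 5 saline libraries and 3 libraries from mice given fucoidan, a sulphated polysaccharide of brown seaweed (here from Undaria pinnatifida), at 200 mg per kg per day. Both groups were gavaged daily for 1 month on a standard diet. A protocol field of the fucoidan samples names saline instead, so groups were taken from the titles and the treatment tags. Whether a library came from 1 mouse or a pool is not stated.

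Most T cells recognise antigen through a receptor of alpha and beta chains. A small second lineage uses gamma and delta chains instead, is sparse in mouse blood and is best known from skin, gut and other barrier tissues, where it gives interleukin 17 or interferon gamma early in a response. The delta gene lies inside the alpha locus and is cut out when the alpha gene rearranges, so Trdc transcripts are the more specific sign of the lineage. Gamma genes are also rearranged and transcribed in many alpha beta T cells, and unrearranged gamma and delta transcripts occur in natural killer cells. Sox13 directs the fate of gamma delta cells in the thymus. Zbtb16, which encodes PLZF, sets the innate-like programme of natural killer T cells, of some gamma delta T cells and of innate lymphoid cell precursors.

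The gamma constant genes are copies of one another, and their sequences set how far their reads can be kept apart. The first 100 bases of the first constant exon, all coding, are shown for each gene from GENCODE transcripts of build GRCm38, 5′ to 3′. Capitals in Tcrg-C2 and Tcrg-C4 mark bases that differ from Tcrg-C1, and capitals in Tcrg-C1 mark every position at which either of them differs.
Tcrg-C1: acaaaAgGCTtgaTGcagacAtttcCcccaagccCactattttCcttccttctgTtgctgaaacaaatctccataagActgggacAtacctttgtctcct
Tcrg-C2: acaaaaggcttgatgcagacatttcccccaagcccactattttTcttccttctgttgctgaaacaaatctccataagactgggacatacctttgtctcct
Tcrg-C4: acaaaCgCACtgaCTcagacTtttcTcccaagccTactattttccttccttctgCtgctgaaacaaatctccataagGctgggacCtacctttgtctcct
These stretches lie at chr13:19214103-19214202 (plus strand), chr13:19307452-19307551 (minus strand) and chr13:19344558-19344657 (plus strand). In this window Tcrg-C2 differed from Tcrg-C1 at 1 base and Tcrg-C4 at 12. Over the whole first exon of 330 bases Tcrg-C2 and Tcrg-C1 were 97.3% identical, and Tcrg-C4 was 82.1% identical to Tcrg-C1. The longest run of bases that the transcripts of Tcrg-C1 and Tcrg-C2 share was 104, against 29 for Tcrg-C4 with either of them. Reads of Tcrg-C1 and Tcrg-C2 can therefore be confused with each other more readily than with those of Tcrg-C4, and the split between these close copies is uncertain. Trdc shared no run longer than 11 bases with any of the 3.

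The members were scarce transcripts: together they held 7456 counts over 8 libraries of 13061703 to 16334932 counts each. Levels below are CPM, counts relative to the library's total, after scaling by TMM, which corrects for a few very abundant genes taking up the library. Haemoglobin transcripts took 3.51 to 8.48% of saline counts and 13.55 to 24.1% of fucoidan counts, and the TMM factors were 1.02 to 1.17 and 0.697 to 0.944. Levels between genes were compared per kilobase of gene model. In saline libraries Tcrg-C2 stood highest, at 12.2 ± 5.15 CPM per kilobase (SD, n = 5). Tcrg-C1 and Tcrg-C4 followed at 7.18 ± 4.07 and 7.08 ± 2.94, and then Trdc at 2.28 ± 0.676 and Zbtb16 at 2.07 ± 1.01. Neither Tcrg-C1 and Tcrg-C4 nor Trdc and Zbtb16 differed beyond their spread. On the same scale the alpha chain gene Trac stood at 87.3. Sox13 was last at 0.175 ± 0.118. After fucoidan Tcrg-C2 was again highest, at 27.0 ± 8.13 CPM per kilobase (SD, n = 3), and Sox13 lowest, at 0.430 ± 0.185. Tcrg-C4 at 16.7 ± 3.85 and Tcrg-C1 at 14.5 ± 4.53 did not differ beyond their spread, nor did Zbtb16 at 4.73 ± 0.825 and Trdc at 3.79 ± 0.340.

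Fucoidan was compared with saline to see how the supplement changes immune transcripts in blood. Of the 6 members 4 rose by edgeR's quasi-likelihood test, Trdc, Tcrg-C2, Tcrg-C4 and Zbtb16, by 1.66-fold to 2.34-fold, and none fell. Of all 14723 genes tested 13.8% were called, 9.11% as higher and 4.65% as lower. All 6 members had fitted changes above 0, with a median log2 change of 1.17 beside -0.04 over all genes tested. Sox13 is among them, and it passed the filter only with its fucoidan libraries, where it was higher. In the same 4 the TMM-scaled CPM of the groups did not overlap. Over all genes 22.6% did not overlap, 11.6% as higher and 11% as lower. Scaled by library totals alone, Tcrg-C4 stayed without overlap, and Trdc, Tcrg-C2 and Zbtb16 overlapped. The calls of members rest on few libraries. The number of members called was 0 without fucoidan replicate 2 or 3, 2 without fucoidan replicate 1, 1 without saline replicate 1, 3 or 4, and 2 when replicate numbers entered as a block. Scaling by library totals alone called 0 members, with 1 at an unadjusted p under 0.05. Where 0 were called without fucoidan replicate 2 or 3, the members at an unadjusted p under 0.05 were 5 and 4; DESeq2 on all libraries called 4 members and limma-voom 5.

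**Figure D1:**
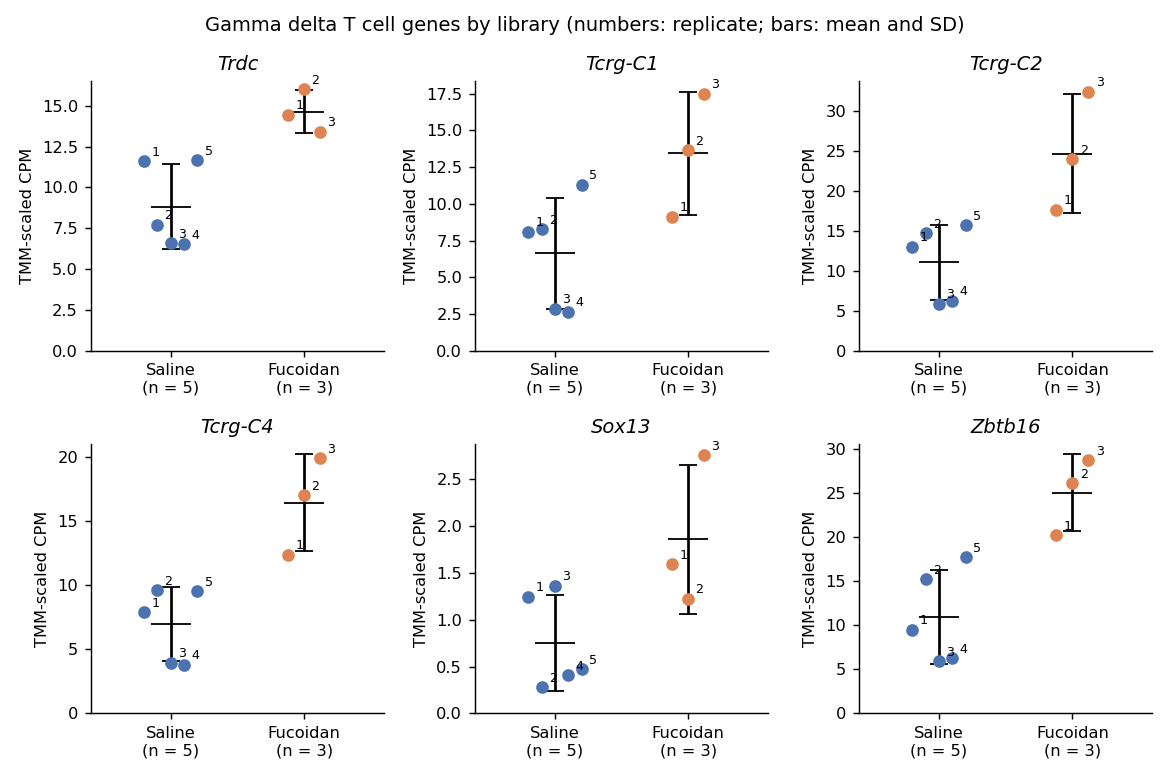
TMM-scaled CPM of each gene in every library, with replicate numbers beside the points and the group mean and SD as bars. The fucoidan points of Trdc, Tcrg-C2, Tcrg-C4 and Zbtb16 all lie above the saline points, and those of Tcrg-C1 and Sox13 overlap them.

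Trdc encodes the constant part of the delta chain, which anchors that chain in the membrane (ENSMUSG00000104876, GRCm39 chromosome 14, 54380308 to 54386325, plus strand). Its raw counts were 205, 137, 106, 113 and 222 in saline replicates 1 to 5, and 209, 210 and 122 in fucoidan replicates 1 to 3. Scaled, these came to 11.6, 7.71, 6.57, 6.53 and 11.7 CPM after saline and 14.5, 16.03 and 13.4 CPM after fucoidan. The raw counts overlap between the groups, as do counts scaled by library totals alone. The TMM-scaled ones do not, with saline replicates 1 and 5 closest to the fucoidan libraries. Means were 8.81 ± 2.61 CPM (SD, n = 5) and 14.6 ± 1.32 CPM (SD, n = 3). That is a 1.66-fold rise on the fitted scale, with a log2 change of 0.73 and an SE of 0.218 (adjusted p = 0.0469 by edgeR's quasi-likelihood test). The call was lost on leaving out saline replicate 2, 3 or 4, or any 1 of the fucoidan libraries (adjusted p = 0.0784 to 0.153), with upper quartile factors (0.0540) and with scaling by library totals alone (log2 0.36, adjusted p = 0.235). The last 207 bases of the Trdc model overlap the segment Trdv5 on the opposite strand, which held 3 to 11 counts per library; how the counting treated strand is not stated, so reads from there cannot be assigned to either.

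The 3 gamma constant genes encode the constant parts of the gamma chain and lie on chromosome 13 of GRCm39: Tcrg-C1 at 19398273 to 19401194 (ENSMUSG00000076749), Tcrg-C2 at 19488819 to 19491721 on the minus strand (ENSMUSG00000076752), and Tcrg-C4 at 19528728 to 19536926 (ENSMUSG00000076757). Tcrg-C4, the copy whose sequence stands apart, had 7.92, 9.63, 3.97, 3.81 and 9.56 CPM in saline replicates 1 to 5 and 12.4, 17.0 and 19.9 CPM in fucoidan replicates 1 to 3. Saline replicates 3 and 4 were the low libraries, and every fucoidan library was above every saline library, also when scaled by library totals alone. The rise was 2.34-fold (log2 1.23, SE 0.311, adjusted p = 0.0243 by edgeR). It did not pass with the replicate block (adjusted p = 0.0517), nor on leaving out saline replicate 1 (0.0531) or, of the fucoidan libraries, replicate 2 (0.0835) or 3 (0.119), nor with no filter on low counts (0.0914) or library totals alone (0.0549).

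Tcrg-C2 had 13.01, 14.7, 5.89, 6.24 and 15.7 CPM after saline, and 17.7, 23.98 and 32.5 CPM after fucoidan. Saline replicates 3 and 4 were again low, fucoidan replicate 1 lay just above saline replicate 5, and the groups did not overlap. Scaled by library totals alone, Tcrg-C2 overlapped, at 16.1 CPM in fucoidan replicate 1 and 18.3 CPM in saline replicate 5. It rose 2.21-fold (log2 1.14, SE 0.325, adjusted p = 0.0394 by edgeR). That call ended with the replicate block (0.192), with no filter (0.216), with library totals alone (0.104) and on leaving out 1 of saline replicates 1, 3 and 4 or of fucoidan replicates 2 and 3 (0.0557 to 0.204).

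Tcrg-C1, its near copy, had 8.09, 8.28, 2.85, 2.66 and 11.3 CPM after saline, and 9.14, 13.7 and 17.5 CPM after fucoidan. Fucoidan replicate 1 lay below saline replicate 5, so the groups overlapped. The fitted change was log2 1.00 (SE 0.423, adjusted p = 0.149 by edgeR), and no alternative called it. Among the members other than Sox13 it varied most between saline libraries, with a coefficient of variation of 56.7%, against 29.6% for Trdc.

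The proportions of the 3 gamma genes to one another differed little between groups. Tcrg-C2 took 45.7 ± 2.27% of their summed counts after saline (SD, n = 5) and 45.1 ± 1.31% after fucoidan (SD, n = 3). The corresponding shares were 25.5 ± 4.04% and 24.5 ± 0.982% for Tcrg-C1, and 28.8 ± 2.07% and 30.4 ± 1.69% for Tcrg-C4. Shares of Tcrg-C2 ran from 43.0% (95% exact Clopper-Pearson interval 39.3 to 46.7%) in saline replicate 5 to 49.1% (42.3 to 55.9%) in saline replicate 4, and intervals such as these cover counting error only. Across the 8 libraries the log2 CPM of the 3 genes correlated at 0.967 to 0.994 and, with group means removed, at 0.985 to 0.991. These values are descriptions, since the genes of a library share its RNA and scaling. Trdc correlated with them at 0.861 to 0.874, and at 0.673 to 0.767 with group means removed.

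Zbtb16 encodes the zinc finger factor PLZF (ENSMUSG00000066687, chromosome 9, 48565597 to 48747522, minus strand). It had 9.50, 15.2, 5.89, 6.24 and 17.7 CPM in saline replicates 1 to 5, and 20.2, 26.1 and 28.7 CPM in fucoidan replicates 1 to 3. Saline replicates 3 and 4 were lowest, as for the gamma genes, and the groups did not overlap. Scaled by library totals alone, Zbtb16 overlapped, at 18.5 CPM in fucoidan replicate 1 and 20.6 CPM in saline replicate 5. It rose 2.28-fold (log2 1.19, SE 0.327, adjusted p = 0.0341 by edgeR), also with the block (log2 1.35, adjusted p = 0.0212). The call ended with no filter (0.202), with library totals alone (0.109) and on leaving out saline replicate 1, 3 or 4, or any 1 of the fucoidan libraries (0.0505 to 0.165). Its log2 CPM followed that of Tcrg-C4 at r = 0.979 over the 8 libraries and 0.947 with group means removed.

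Sox13, an HMG-box factor, was the one member too low to measure reliably. Its counts were 22, 5, 22, 7 and 9 after saline and 23, 16 and 25 after fucoidan (ENSMUSG00000070643, chromosome 1, 133310041 to 133352115, minus strand). It held 129 counts in all, under 10 in 3 libraries, and it was the scarcest member to pass the filter on low counts, which all 6 passed. Sox13 met that filter only with its fucoidan libraries, the group where it was higher, so its fitted change is a description. The 95% exact Poisson intervals were 1.62 to 11.7 for the 5 counts of saline replicate 2 and 16.2 to 36.9 for the 25 counts of fucoidan replicate 3. Scaled levels of 0.754 ± 0.509 CPM (SD, n = 5) and 1.85 ± 0.798 CPM (SD, n = 3) overlapped, and the fitted log2 change of 1.27 (SE 0.524) was not called (adjusted p = 0.138 by edgeR). Of 16 alternatives 1, limma-voom, called it (adjusted p = 0.0392). Its libraries were ordered differently from those of the receptor genes, with saline replicate 3 among the highest, and its correlation with them was -0.205 to 0.0304 once group means were removed.

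**Figure D2:**
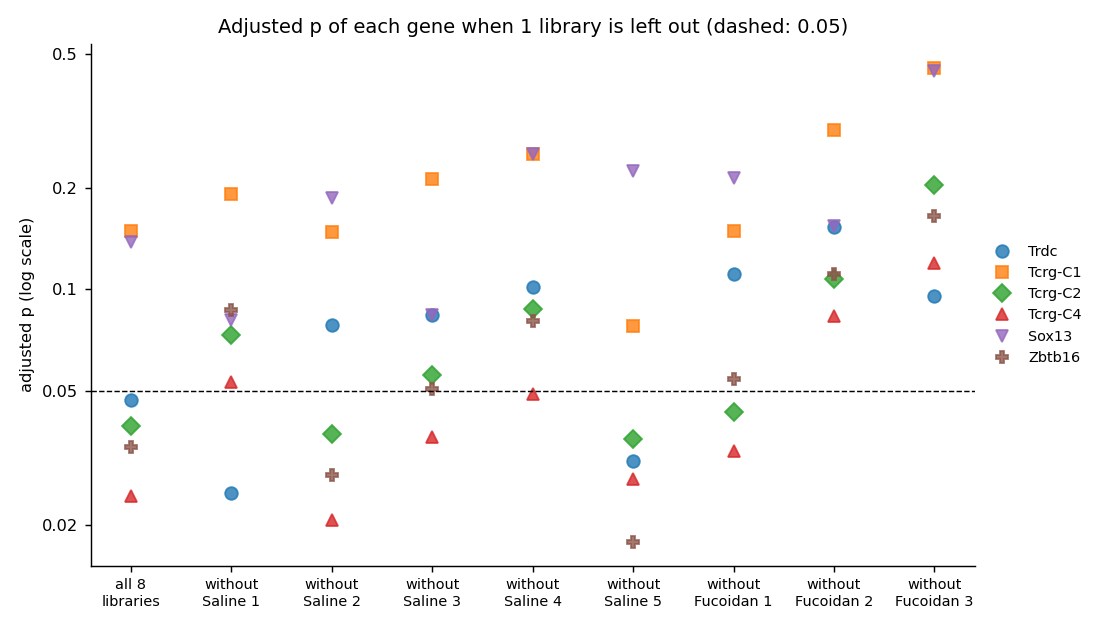
Adjusted p of each gene by edgeR with all 8 libraries and with each left out, on a log axis with the 0.05 threshold dashed. Without fucoidan replicate 2 or 3 every point lies above the threshold, and without saline replicate 5 the 4 called genes stay below it.

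The V, D and J segments joined to these constant genes were counted as genes of their own. Of 32 such entries (the minor constant gene Trgc3 included) 6 passed the filter and 6 were listed at 0 in all libraries. Of those tested 1 rose and 0 fell, beside 9.11% and 4.65% of all genes, so this count is near the background. Without overlap 3 were higher and 1 lower, beside 11.6% and 11% of all genes. The median of their log2 changes was 1.10. It is a description, since Trgj4 and Trav14d-3-dv8 passed the filter only with the group where each was higher. The riser was Trdv4, a delta V segment (chromosome 14, 54312362 to 54312972), with counts of 28, 14, 13, 5 and 32 after saline and 50, 43 and 19 after fucoidan. The saline mean was 1.03 ± 0.589 CPM (SD, n = 5) and the fucoidan mean 2.94 ± 0.745 CPM (SD, n = 3), without overlap (log2 1.51, SE 0.449, adjusted p = 0.0463 by edgeR). The call was lost on leaving out saline replicate 2, 3 or 4, or any 1 of the fucoidan libraries (adjusted p = 0.0610 to 0.149) and with library totals alone (0.0513).

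Of 899 counts on the 7 gamma V segments, 57.0% fell on Trgv2, 20.9% on Trgv1 and 17.7% on Trgv4. Trgv2 lies in the cluster of Tcrg-C2 and, with Trgj2 and Tcrg-C2, on the minus strand, Trgv1 lies upstream of Tcrg-C4, and Trgv4 upstream of Tcrg-C1. The largest V share belonged to the cluster whose constant gene was also the most abundant. Sequences of the V segments were not compared, so how well their reads can be kept apart is not known. The split of Tcrg-C2 from Tcrg-C1 is uncertain as well. Trgv2 had 3.17, 4.67, 1.05, 1.79 and 5.20 CPM after saline and 5.40, 6.03 and 7.59 CPM after fucoidan, which do not overlap, but its change was not called (log2 0.98, SE 0.415, adjusted p = 0.150 by edgeR). Trgv4 also did not overlap and was not called (log2 1.24, SE 0.387, adjusted p = 0.0567), and Trgv1 overlapped (log2 0.89, adjusted p = 0.218). Trgj4 overlapped as well (log2 1.22, adjusted p = 0.289). Its counts were 8, 16, 0, 6 and 31 after saline and 30, 20 and 10 after fucoidan. It passed the filter only with its fucoidan libraries, where it was higher. Trav14d-3-dv8, a V segment that alpha and delta chains share, was the sole tested segment with a change below 0, with 10, 11, 14, 10 and 10 counts after saline and 1, 6 and 0 after fucoidan (log2 -1.70, SE 0.685, adjusted p = 0.131 by edgeR). Its libraries with 10 or more counts were all saline ones, so it passed the filter only through the group where it was higher. Of all the segments, 1 was called lower and 2 higher with limma-voom, and 1 lower and 0 higher with library totals alone and without fucoidan replicate 2. Over all genes limma-voom called 1050 lower and 1636 higher, and library totals alone 4753 lower and 810 higher. Without fucoidan replicate 2 these counts were 315 and 1146. The segments Trgv3, Trgv5, Trgv6 and Trgv7 held 2 to 17 counts over all libraries, too few to compare.

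**Figure D3:**
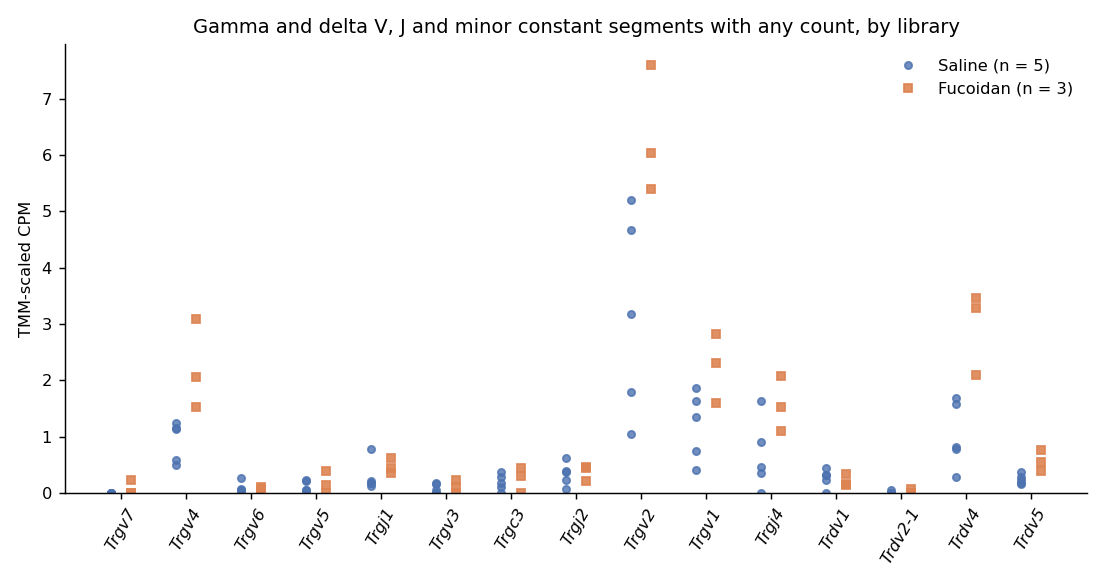
TMM-scaled CPM of gamma V and J segments, Trgc3 and delta V segments with at least 1 count, circles for saline and squares for fucoidan libraries. Delta D and J segments are not shown, nor are V segments that alpha and delta chains share, such as Trav14d-3-dv8. Trgv2 is the highest in both groups, and the fucoidan values of Trdv4, Trgv4 and Trgv2 lie above all saline values.

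To see whether delta chain transcripts moved apart from those of other cells, Trdc was set against 3 genes of the same library, which removes library size and scaling. Per 100 counts of Trac there were 11.97, 8.02, 9.70, 10.75 and 13.5 Trdc counts in saline replicates 1 to 5 and 14.4, 14.98 and 8.84 in fucoidan replicates 1 to 3. Fucoidan replicate 3 fell among the saline values. The ratio was 1.17-fold higher with fucoidan (log2 0.22). By an exact permutation test, two-sided, p was 0.393 and 0.464 after adjustment over the 3 ratios; the difference ran from log2 0.09 to 0.47 as libraries were left out. Per 100 counts of Cd3e, a signalling chain of both kinds of receptor, Trdc stood at 15.1 ± 3.74 (SD, n = 5) and 17.8 ± 3.94 (SD, n = 3), also without a detectable difference (log2 0.24, exact permutation p = 0.393, adjusted p = 0.464). Per 100 counts of Ncr1, a receptor of natural killer cells, it stood at 41.2 ± 9.03 (SD, n = 5) and 36.2 ± 9.80 (SD, n = 3), a log2 difference of -0.20 (exact permutation p = 0.464, adjusted p = 0.464). The smallest p that 56 arrangements allow is 0.0357.

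Ratios of the gamma genes and Zbtb16 are given as descriptions and were not tested. Tcrg-C4 per 100 Trac was 8.18, 10.01, 5.86, 6.28 and 11.02 after saline and 12.3, 15.9 and 13.1 after fucoidan, with no overlap. The sum of the 3 gamma genes was 29.1 ± 9.59 per 100 Trac (SD, n = 5) and 45.4 ± 6.06 (SD, n = 3), and Zbtb16 ran from 8.69 to 20.4 and from 18.9 to 24.4; in both, saline replicate 5 overlapped the fucoidan libraries. Zbtb16 per 100 Cd3e was 17.8 ± 5.37 (SD, n = 5) and 29.8 ± 4.09 (SD, n = 3), without overlap. Set against Ncr1, the gamma sum was 114 ± 46.0 and 137 ± 54.6 per 100 counts and Zbtb16 50.9 ± 23.3 and 62.6 ± 20.8, each with overlap. Trdc per 100 gamma counts ran from 23.7 to 51.7 after saline and from 19.2 to 36.9 after fucoidan.

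**Figure D4:**
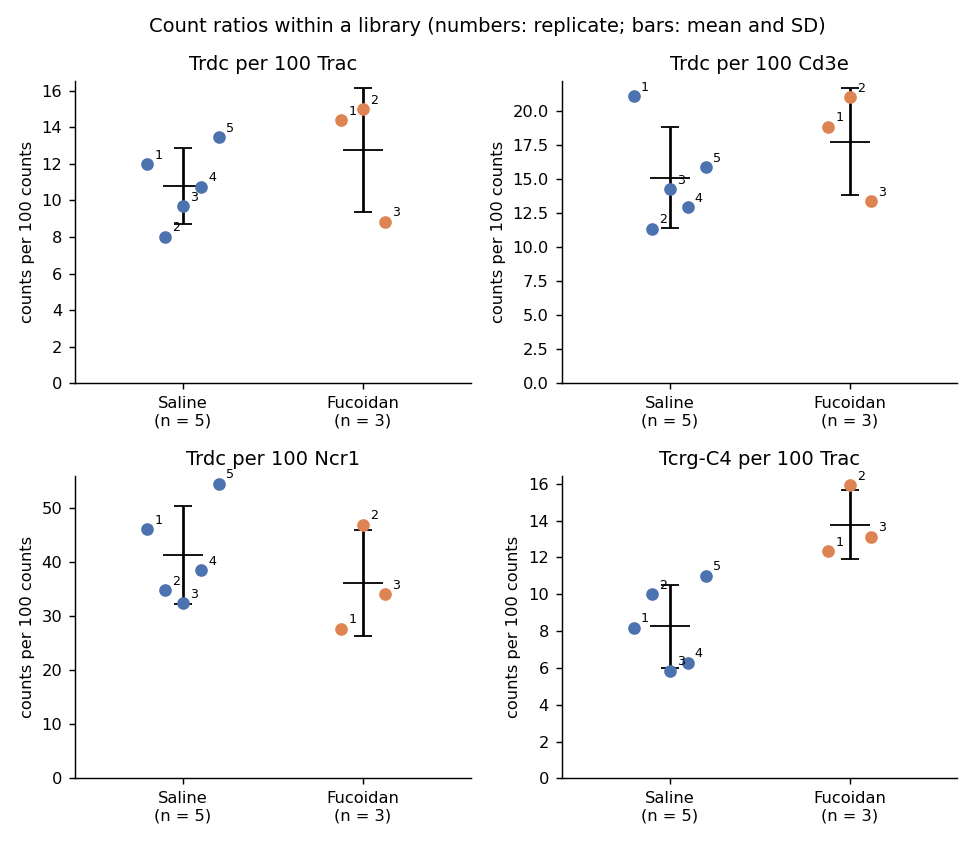
Counts of Trdc per 100 counts of Trac, Cd3e and Ncr1, and of Tcrg-C4 per 100 counts of Trac, in every library with group means and SD. The 3 Trdc ratios overlap between groups, and that of Tcrg-C4 does not.

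The genes beside which these ratios are read moved by different amounts. The log2 change of Trac itself was 0.55 (SE 0.182, adjusted p = 0.0686 by edgeR) and that of Cd3e 0.52 (adjusted p = 0.0535), neither called in that fit. As for Trdc, the TMM-scaled CPM of Trac and of Cd3e did not overlap between groups. Cd3e was called with median-of-ratios factors (0.0468), TMM without erythroid genes (0.0469), no filter (0.0185), DESeq2 (0.0224) and limma-voom (0.0456), and on leaving out saline replicate 2 (0.0440) or 5 (0.0309). Trac was called with DESeq2 (0.0319) and limma-voom (0.0395). The beta chain genes Trbc1 and Trbc2 stood at 0.12 and 0.31 (adjusted p = 0.508 and 0.133 by edgeR). With library totals alone Trbc1 and Trbc2 turned to -0.27 and -0.10. Among 18 shared and alpha beta T cell genes 8 were higher without overlap, beside 11.6% of all genes. By the test 4 of the 18 rose (Cd4, Cd8a, Lat and Thy1), none fell, and the median was 0.35. That count was 1 with the block, with upper quartile factors and on leaving out saline replicate 3 or 4 or fucoidan replicate 1 or 3, 2 once saline replicate 5 was dropped, 7 once saline replicate 2 was, and 0 with library totals alone. It was 8 with DESeq2 and with limma-voom, and 6 with median-of-ratios factors and with TMM without erythroid genes. All 15 natural killer genes rose, 14 of them without overlap, with a median log2 change of 1.10 and 0.99 for Ncr1 (SE 0.156, adjusted p = 0.00396 by edgeR). The rises numbered 11 without fucoidan replicate 1 and with library totals alone, 13 without fucoidan replicate 3, and 14 or 15 in the other alternatives. The summed level of the natural killer genes was 354 to 479 CPM in saline and 834 to 1120 CPM in fucoidan libraries. Klrb1c of that list also marks some natural killer T cells. Erythroid genes (11 of 11) and platelet genes (11 of 11) also rose, and 10 of 11 B cell genes fell. The part of natural killer, red cell and platelet RNA in the changes of the members was not tested. In a bulk sample more cells of a type and more RNA per cell cannot be told apart.

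**Figure D5:**
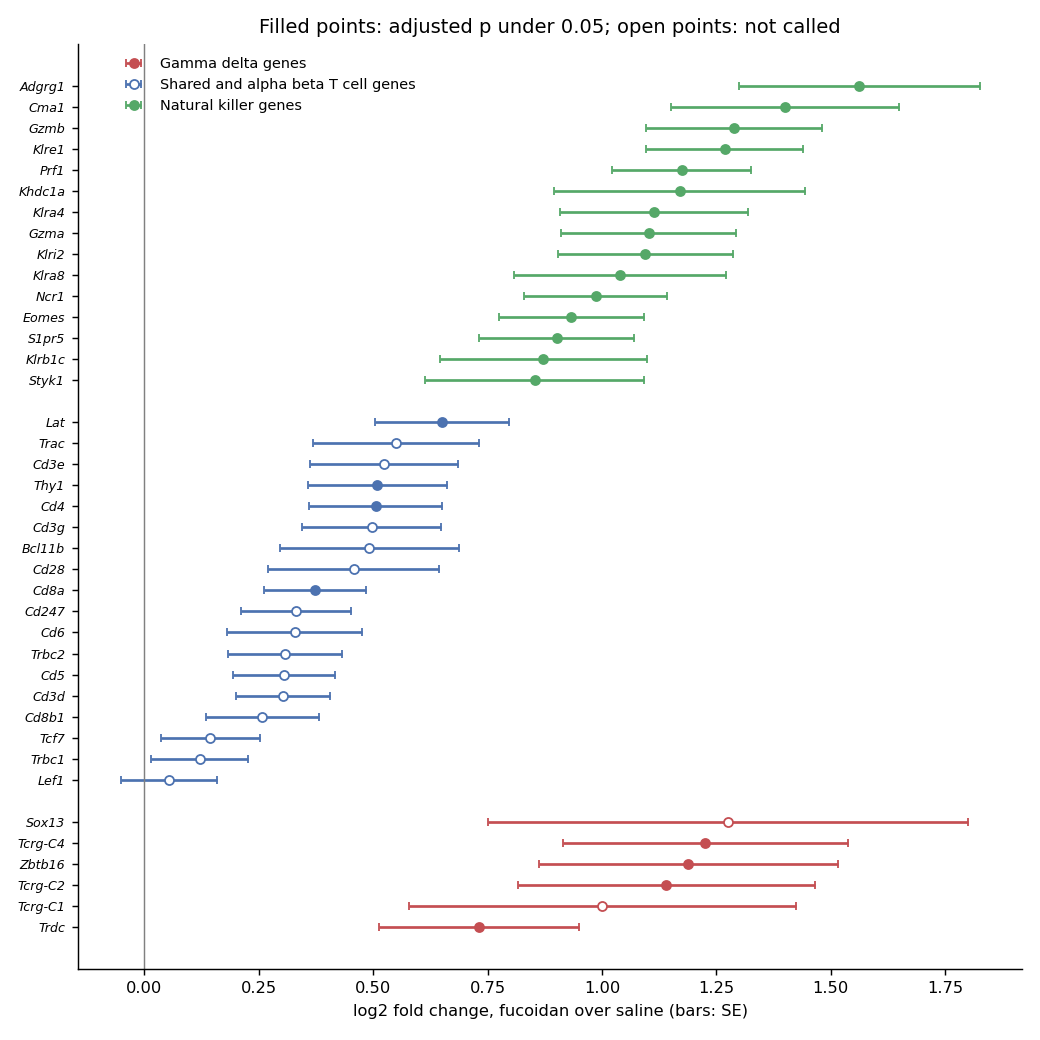
Log2 fold change of fucoidan over saline with its SE for the 6 members, 18 T cell genes and 15 natural killer genes; filled points passed the test. Trdc lies above all 18 T cell genes and below all 15 natural killer genes, and the other members lie in the range of the natural killer genes.

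Most genes of the gamma delta programme that yields interleukin 17 were not called. Of 20 such genes 16 were tested: 2 rose, 2 fell, 12 did not pass, and the median of their log2 changes was 0.32. Over all genes tested 9.11% rose and 4.65% fell, so counts this small are near the background. With library totals alone 0 of them rose and 4 fell, and 0 rose on leaving out saline replicate 3 or 4 or fucoidan replicate 1 or 3. Cd163l1, a scavenger receptor of gamma delta cells that the table lists as Scart1, had 3.62, 1.91, 3.16, 2.08 and 3.78 CPM after saline and 5.19, 4.58 and 9.35 CPM after fucoidan, without overlap (log2 1.11, SE 0.305, adjusted p = 0.0340). Its neighbour 5830411N06Rik (Scart2) was not called (log2 1.35, SE 0.459, adjusted p = 0.0759). Il1r1, the interleukin 1 receptor, rose, with mean levels of 0.721 ± 0.311 CPM (saline, SD, n = 5) and 1.84 ± 0.323 CPM (fucoidan, SD, n = 3) and adjusted p = 0.0404 by edgeR and 0.0860 with the block. Il1r1 was scarce: it held 132 counts in all, under 10 in 2 libraries, close to the 129 of Sox13. The chemokine receptor Ccr6 fell (log2 -1.05, SE 0.186, adjusted p = 0.00510), as did the kinase Blk (log2 -0.68, SE 0.142, adjusted p = 0.00958); B cells express both. Il17a and Il17f held 19 and 8 counts in all and were not tested. The Cd163l1 (Scart1) call ended on leaving out 1 of saline replicates 2, 3 and 4 or of fucoidan replicates 1 and 3 (0.0522 to 0.199), and with library totals alone (0.0607). That of Il1r1 held on leaving out saline replicate 1 but no other library (0.0553 to 0.156), and ended with library totals alone (0.0759). That of Blk ended without fucoidan replicate 3 (0.0504).

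A list of 15 genes known from the interferon gamma type of gamma delta cell was tested in full. By the test 7 rose and none fell (median log2 0.51), and 12 of the 15 had changes above 0. In a bulk sample the cells that gave the transcripts of this list and the next cannot be told apart. Over all genes tested 9.11% rose and 4.65% fell. With library totals alone 5 of the 15 rose and 1 fell. In the other alternatives 6 to 8 rose and 0 fell. Eomes, Gzmb and Gzma of these genes were also in the natural killer list. Klrk1, the activating receptor NKG2D, stood at 56.8 ± 10.5 CPM in the saline libraries (SD, n = 5) and at 126 ± 23.0 CPM with fucoidan (SD, n = 3). The granule proteases Gzmb and Gzma and the factor Eomes rose by log2 1.29, 1.10 and 0.93. The list for innate-like T cells with PLZF held 18 genes. Of these 13 were tested, 5 rose, none fell, and the median was 0.65. The rises numbered 3 with the block and on leaving out saline replicate 4 or fucoidan replicate 1 or 2, and 1 without fucoidan replicate 3 and with library totals alone; limma-voom gave 8. A single gene was called lower with upper quartile factors, no filter, limma-voom and library totals alone, and on leaving out saline replicate 1 or fucoidan replicate 2. Slamf1, a receptor needed for natural killer T cells that platelets also carry, had 45.3 to 68.5 CPM after saline and 98.9 to 192 CPM after fucoidan (log2 1.25, SE 0.2002, adjusted p = 0.00396 by edgeR). Cd44, the kinase Fyn and the receptor Klrb1c rose by log2 0.51, 0.62 and 0.87. Cd44 did not pass with the block (0.0543), and none of these 3 passed without fucoidan replicate 3 (0.0732 to 0.109) or with library totals alone. Klrb1c was also lost without fucoidan replicate 1 (0.0985) or 2 (0.0655) and with no filter (0.147), and Fyn without saline replicate 4 (0.0599). The receptor segments of natural killer T and mucosal-associated invariant T cells (Trav11, Trav11d, Traj18, Trav1 and Traj33) held 1 to 14 counts each over all libraries and were not tested.

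The genes most like each member were taken as the 3 highest Pearson correlations of log2 CPM among 11185 protein-coding genes for the receptor members and 11184 for the factors. With that many genes and 8 libraries, high values occur readily. For Tcrg-C2 they were the chemokine receptor Cxcr3 (r = 0.990), Rhoc and Abr. For Tcrg-C4 they were Abr (0.995), Prex1 and the T cell surface protein Thy1 (both 0.983), and for Tcrg-C1 the T cell adaptor Skap1 (0.983), Socs2 and Cxcr3 (both 0.981). Trdc was most like Abhd13 and Lilra5 (both 0.984) and Gna15 (0.979), Zbtb16 most like Crim1 (0.989), Arsb and Thap2, and Sox13 most like Atp5j2 (0.985), Raly and Eef1d. With group means removed these correlations were 0.946 to 0.989.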

How the data were processed

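The authors deposited raw counts per gene. Per the submitters' processing notes, cutadapt 4.0, Trimmomatic 0.39 and HISAT2 2.2.1 were used with build GRCm39; the counting program, annotation release and strand handling are not stated there. Coordinates of genes are the table's, with build GRCm39; printed sequences are GENCODE's on GRCm38, and the builds were not mixed. Titles gave the groups, and the labels give 1 batch for all libraries.

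Genes were filtered with filterByExpr and tested with edgeR 4.0.16 (TMM factors, robust quasi-likelihood test, R 4.3.3), with Benjamini-Hochberg adjustment over the 14723 genes kept and a threshold of 0.05. The SE is the absolute log2 fold change over the square root of the F statistic. Ratios were compared by exact two-sided permutation in scipy 1.17.1. Alternatives used DESeq2 1.42.0, limma 3.58.1 (voom), other factors and filters, a replicate block and leaving out each library; library totals alone was added after seeing the data. The procedure was tested on simulated data. No 2 library columns were identical, and libraries correlated at 0.947 to 0.986. The titles call the libraries biological replicates without saying that each is a separate animal, so p-values measure the spread between these libraries.

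Like-numbered libraries of the 2 groups correlated at 0.177, 0.233 and 0.144 after group means were removed, each above 0.1. Unlike-numbered libraries ran from -0.261 to 0.144 (fucoidan replicate 2 with saline replicate 5), so a cut at 0.1 does not single out like numbers. The titles do not state a pairing, and the main fit had no block. A fit with the numbers as a block was run as an alternative. Saline replicates 4 and 5 have no partner and add nothing to the difference in that fit.

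The members and gene lists were chosen with earlier results of these data known. Named genes are the members, fixed comparators (Trac, Trbc1, Trbc2, Cd3e and Ncr1), up to 4 called genes of smallest p in each programme list, and the 3 genes most like each member with a mean of at least 1 CPM; Trgv1, Trgv2, Trgv4, Trgj4, Trav14d-3-dv8, Cd3d, 5830411N06Rik, Il17a, Il17f and the remaining segments were named after their values were seen. Of the erythroid list 1 gene, Ahsp, was not matched. The lists tested but not described were those of innate lymphoid cells (4 of 9 rose), endothelial and stromal cells (1 of 5, Vwf, which platelets carry) and granulocytes (0 of 8, with 0 falls).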

Additional observations from a re-analysis of the deposited data

How the results depend on the processing

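The number of members called stayed at 3 to 5 with median-of-ratios or upper quartile factors, TMM without erythroid genes, at least 10 counts in every library (5 members tested), DESeq2 and limma-voom. It was 1 with no filter on low counts, 2 with the replicate block, 0 to 4 as libraries were left out, and 0 with library totals alone. With library totals alone 5563 genes were called in all (810 higher, 4753 lower), against 2025 (1341 higher, 684 lower), and the median of all genes shifted to -0.42. Relative to the median Trdc stood at 0.78, and at 0.77 with TMM. A change of scaling moves all genes by nearly the same amount. These values therefore had to be close, and they do not bear on the lost calls. With library totals alone Trbc1, Trbc2 and Cd3d reversed, to -0.27, -0.097 and -0.083. Upper quartile factors gave 1241 higher and 989 lower calls. Leaving out a library gave 928 to 2224 calls in all; the lowest was without fucoidan replicate 3, and 1291 passed without saline replicate 4. No alternative turned the direction of a member: Trdc ranged from 0.36 to 0.86, Tcrg-C1 from 0.57 to 1.28, Tcrg-C2 from 0.71 to 1.34, Tcrg-C4 from 0.81 to 1.40, Sox13 from 0.88 to 1.59 and Zbtb16 from 0.78 to 1.43. The Trdc ratios kept their direction and did not pass under any alternative, though with a library left out the smallest exact p is 0.0571 or 0.0952. The cause of lost calls was not tested. Apart from Tcrg-C2, Tcrg-C4, Il1r1 and Cd44, the replicate block ended no call of a member, of Ncr1, of Trdv4 or of a named programme gene. Of the T cell genes the block called 1, against 4 in the main fit (Cd4, Cd8a, Lat and Thy1). Of the innate-like T cell genes it called 3, against 5 in the main fit. Counts of 5 to 25 limit Sox13.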
